A study of Mus musculus with 76 samples.

Results

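CTCF sites at promoters were defined as regions bound by CTCF in the diencephalon of wild type mouse embryos at E17.5 that reach within 2000 bp of the start of a protein-coding gene. Peaks of the 3 wild type CTCF lists with 1 bp or more in common were merged into 85858 regions, and 51511 of these held a peak in all 3 lists. Of the 51511, 8749 lay within 2000 bp of a start and are the promoter sites described here, while 42762 lay further away and serve as distal sites for comparison. With the starts of all protein-coding transcripts 11269 regions lay within 2000 bp, so some distal sites lie near another transcript start. The promoter sites belonged to 8257 of the 21757 annotated protein-coding genes (38.0%). Another 5396 merged regions lay within 2000 bp of a start but were called in only 1 or 2 lists, and were not counted as promoter sites.

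CTCF is a zinc finger protein that binds DNA through a long GC-rich motif and, together with the ring-shaped cohesin complex, shapes the loops and domain borders of chromosomes. Many of its sites lie far from genes, while those close to a start can bring that promoter into contact with distant elements or separate it from neighbouring genes. CTCF sites in gene clusters such as the Hox and protocadherin genes, and at imprinted genes, are textbook cases. H3K4me3 marks promoters, H3K27ac marks active promoters and enhancers, and H3K27me3 is deposited by the Polycomb repressive complex at silent developmental genes.

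The samples came from C57BL/6J embryos at E11.5 and E17.5 that were homozygous either for the wild type locus or for a humanized locus, in which the human sequence of the region hs754 replaced its mouse counterpart. The humanized line was made by Cas9 editing of C57BL/6J embryos followed by backcrossing. A replicate was a pool of littermates, 6 for E11.5 and 3 for E17.5, so p-values measure the spread between such pools. ChIP-seq for H3K4me3, H3K27ac and H3K27me3 gave 2 E11.5 lists and 3 E17.5 lists for either genotype, CTCF was profiled at the later stage alone with 3 lists each, and RNA was sequenced from 4 replicates of each genotype and stage. The study also notes that the H3K27ac antibody bound peptides with acetylated H2B lysine 5.

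RNA-seq libraries held between 16414369 and 24272569 counts on genes. Neuronal markers (5 genes) summed to between 1612 and 2030 CPM (counts scaled to library size) in wild type at E11.5 and to between 4788 and 5132 at E17.5, and progenitor markers (6 genes) summed to at least 3926 and then to at most 1134. Markers of astrocytes (4 genes) went from 55.9 to 60.8 CPM in the E11.5 samples to 283 to 335 by E17.5, those of choroid plexus (3 genes) from 4.51 to 6.41 to 143 to 293, and those of meninges and mesenchyme (5 genes) from 1408 to 1931 to 398 to 625. No marker was at 0, and the part of these cell types in the RNA differences between stages was not tested. The wild type E17.5 replicate 1 stood apart from its group, with a mean correlation over promoter-site genes of 0.938 against 0.974 to 0.978 for the other 3. Its transcripts deviated from the group mean by +0.59 (log2) in the quintile of these genes with the shortest transcripts and by -0.48 in that with the longest. Its marker sums for microglia (51.1 against at most 30.2 CPM), endothelium (311 against at most 206) and erythroid blood (903 against at most 457) were the highest of the group. So were those for meninges and mesenchyme (625 against at most 452) and, narrowly, for the oligodendrocyte lineage (197 against at most 195). Its sums for neurons (4788 against at least 4806) and progenitors (784 against at least 884) were the lowest, and those for astrocytes and choroid plexus lay within the range of the others. The part of these differences in the results was not tested. RNA counts by stage were repeated without this library, a choice made after the data were seen, and each printed count that moved by more than 1.5 times is followed by its value without it.

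Exact copies of the central bases of the CTCF motif were found near the peak summit at some of these promoters. The motif was searched on both strands as CCA, any 2 bases, AG, any 2 bases and GGC, up to 150 bp either side of the summit of the highest peak. The sequences below are mm39 bases read 5′ to 3′ on the strand that holds the match, with the match in capitals, for the strongest sites with a match and for genes of the groups described further on.
Disp3, chr4:148372750-148372779, minus strand: cctcgggggCCAGTAGGGGGCatggccagg
Ints7, chr1:191308097-191308126, minus strand: tagctgccgCCACTAGGTGGCgccactccc
Hoxa7, chr6:52198780-52198809, minus strand: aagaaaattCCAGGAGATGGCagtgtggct
H13, chr2:152511301-152511330, plus strand: ccctcaccgCCACCAGAGGGCgatcgggcg
Nrxn2, chr19:6468331-6468360, plus strand: cagactcagCCAGCAGAGGGCgctgtggcc
Lmx1b, chr2:33533284-33533313, minus strand: acactatggCCAGCAGAGGGCggagtgcac
Rrm2, chr12:24758666-24758695, plus strand: cttaggctcCCAGTAGAGGGCgcccgctcg
The centre of the match lay 3.5 bp from the peak summit at Nrxn2, 6.5 bp at Ints7 and H13, 12.5 bp at Rrm2, 18.5 bp at Lmx1b, 25.5 bp at Hoxa7 and 99.5 bp at Disp3. Over all promoter sites with a match the median distance was 14.5 bp, and 70.5% of matches lay within 25 bp of the summit. The match was on the strand of the nearest gene in 53.4% of sites.

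An exact match was found at 1561 of the 8749 promoter sites (17.8%, Wilson 95% interval 17.1% to 18.7%) and at 36.2% of distal sites. Of the windows of the same length centred on all 21757 starts, 2.47% held it, and windows 1000 bp to either side of the promoter summits held it in 2.31% and 2.69%. With 1 mismatch allowed the shares were 61.9% at promoter sites, 76.1% at distal sites and 33.3% at all starts. The promoter sites were richer in GC than distal ones, with a median of 58.1% against 46.5%. Their observed over expected CpG ratio, which is low in most of the genome and high in CpG islands, was 0.612 against 0.205.

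These features changed with the distance between the site and the start. The region covered the start itself at 4018 sites (45.9%), where 12.2% held the exact motif and 95.7% had H3K4me3 in all 3 lists at E17.5. Among the 1725 sites more than 1000 bp away, 30.6% held the motif, 42.1% had H3K4me3, and the CpG ratio was 0.256 against 0.740 at sites over the start. Sites at intermediate distances fell between these values in each measure. The summit lay in an untranslated exon at 26.7% of sites, in a coding exon at 9.21%, in an intron at 25.9% and outside protein-coding transcripts at 38.2%.

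**Figure D1:**
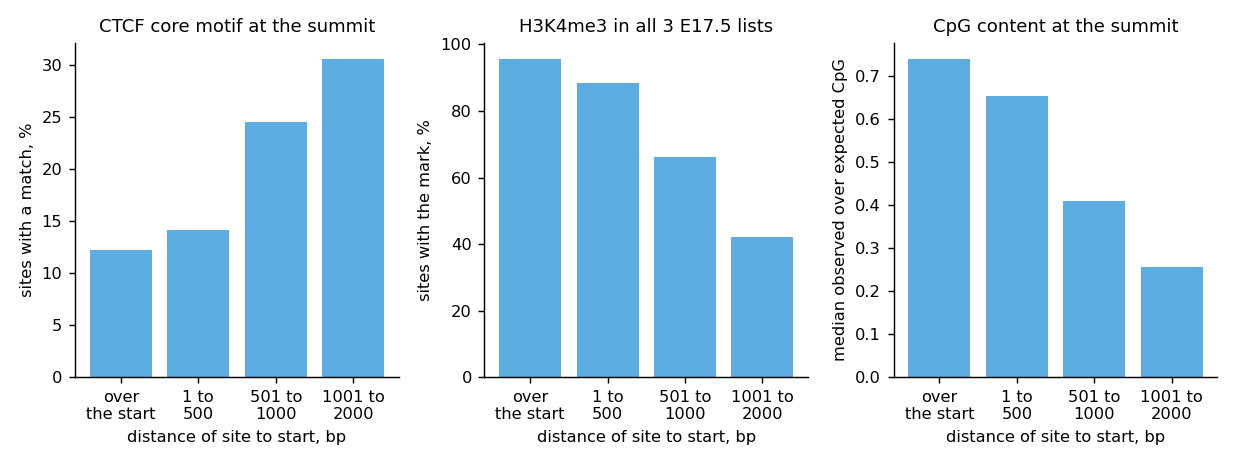
Share of promoter CTCF sites with an exact motif match, share with H3K4me3 in all 3 wild type E17.5 lists, and median observed over expected CpG ratio, for sites over the start and in 3 bins of distance from it. The motif share goes from 12.2% to 30.6% between the nearest and the farthest bin, and the H3K4me3 share from 95.7% to 42.1%.

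Most sites served a single gene. A single start lay within 2000 bp at 7737 sites, and 956 sites lay near 2 starts, of which 850 (88.9%) were on opposite strands. The median distance from summit to start was 500 bp, and the summit was upstream of the start at 3860 sites (44.1%). Of the genes, 6808 had 1 site, 1342 had 2 and 107 had 3 or more. Among autosomes the share of protein-coding genes with a site ran from 33.4% on chromosome 7 to 45.2% on chromosome 8, while chromosome X had a site at 168 of 982 genes (17.1%) and chromosome Y at 0 of 154. Just inside the limit were sites 2000 bp from Frmpd2 (fold enrichment 4.63, 6.22 and 3.95 in the 3 lists), 1999 bp from Acaa2 and 1998 bp from Tmc4. Just outside it were sites 2001 bp from Matn4 (52.9, 44.2 and 24.1) and 2003 bp from Mustn1 and Tlnrd1.

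Column 7 of the peak lists gives the fold enrichment of the peak summit over the local background. Its median at promoter sites was 11.1, 8.26 and 9.67 in the 3 lists, and at distal sites 12.8, 9.68 and 10.7. Enrichment was lower at promoter than at distal sites in each list, by 0.21, 0.23 and 0.14 on the log2 scale, with a mean difference of -0.19 ± 0.046 (SD, n = 3 lists; two-sided exact permutation p = 0.25, which 3 lists cannot go below). With only peaks at a -log10 q of at least 5 the mean difference was -0.09, of the same sign. Among sites with an exact motif the difference was of the opposite sign, 0.07 ± 0.032 (exact permutation test, p = 0.25). Within promoter sites, those with the motif were more enriched than those without by 0.74 ± 0.038 (SD, n = 3 lists; exact permutation test, p = 0.25), a 1.67-fold difference. The read depth behind a peak is unknown from peak lists.

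**Figure D2:**
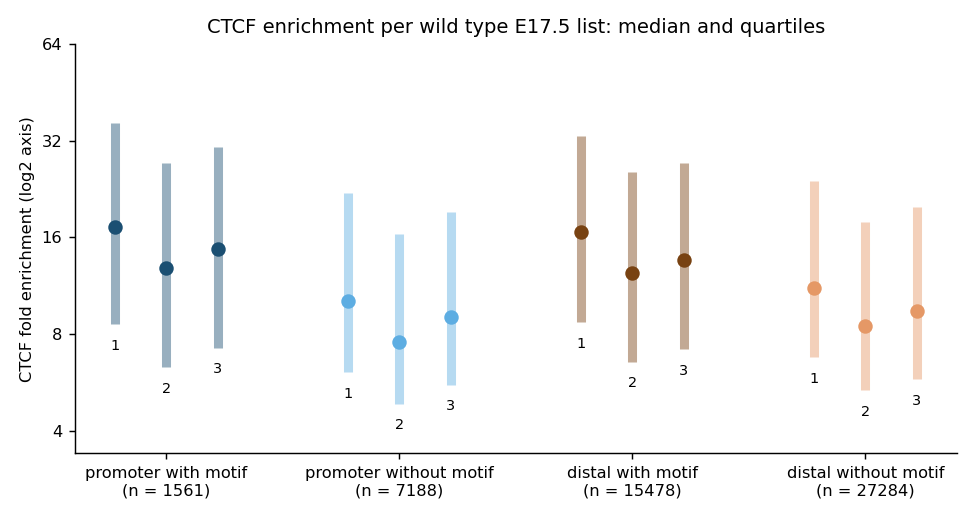
Median and quartiles of CTCF fold enrichment over local background in each of the 3 wild type E17.5 lists, for promoter sites with (1561) and without (7188) an exact motif match and for distal sites with (15478) and without (27284) one. Sites with the motif have the higher medians in every list, both at promoters and elsewhere.

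The fold enrichment of a promoter site was similar across lists, with Pearson's r of its log2 between lists of 0.919 to 0.925 and Spearman's rho of 0.899 to 0.911 across the 8749 sites. The lists share the genome's base composition and mappability, so these values are a description. List 1 held the highest value at 60.0% of sites, and with each list centred on its median the SD over lists had a median of 0.26 (log2). From the lowest to the highest quintile of mean fold enrichment the share with the exact motif went from 9.09% to 29.5%, and the share with H3K4me3 at E17.5 went from 85.0% to 77.5%.

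The strongest promoter site covered the start of Disp3, a gene of the patched-domain family, with fold enrichments of 85.5, 74.1 and 65.8 in the 3 lists (chr4:148372005-148373673, summit 21 bp upstream of the start and outside protein-coding transcripts). It was followed by sites at Tnfaip3, an inhibitor of NF-kappaB signalling (73.6, 71.4 and 78.5), and Arid3a, a DNA-binding protein (87.0, 56.9 and 76.7). The Arid3a summit lay 1210 bp upstream of the start, and none of the 3 marks was called there in all lists at either stage. Next came Med4, a Mediator subunit, with 55.3, 79.2 and 82.5, and the tumour suppressor Trp53, with 62.1, 73.0 and 78.5. The Trp53 region covered the start, with its summit 624 bp downstream in an intron, and was shared with the start of the antisense neighbour Wrap53. Sh3bp5, Ints7 (shared with Dtl), Sh3gl1, Alg5 (shared with Exosc8) and Dnajc11 completed the 10 strongest, with means between 69.3 and 71.2. Counting marks called in all lists, 8 of these 10 sites carried H3K4me3 and H3K27ac without H3K27me3 at E17.5, Disp3 carried all 3 marks, and Arid3a none. An exact motif was present at Disp3 and Ints7, and all 10 except Dnajc11 held a match with at most 1 mismatch.

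H3K4me3 was present at most promoter CTCF sites at both stages, and H3K27ac was present at more of them at E17.5 than at E11.5. In wild type, H3K4me3 overlapped 80.1% and 79.5% of the sites in the E11.5 lists and 81.0%, 81.1% and 80.6% in the E17.5 lists. H3K27ac overlapped 58.7% and 56.6% at E11.5 against 72.8%, 73.3% and 75% at E17.5, with no overlap between stages and a mean difference of 16 percentage points (two-sided exact permutation p = 0.2, which 2 against 3 lists cannot go below). H3K27me3 overlapped 27.7% and 24.5% at E11.5 against 27.4%, 23.8% and 24.0% at E17.5, and the stages overlapped (difference -1.02, exact permutation test, p = 0.4; 0.602 without E11.5 replicate 1). Shares in humanized embryos were taken over the 8451 promoter sites outside chromosome 13. There H3K27me3 overlapped 28.4% and 29.3% of sites at E11.5 against 23.8%, 23.4% and 21.8% at E17.5, without overlap between stages (difference -5.87, exact permutation test, p = 0.2). H3K4me3 in these embryos overlapped 80.0% in both earlier lists against 80.5%, 79.4% and 80.3%.

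At distal sites the same lists had H3K4me3 at 9.59% to 10.9%, H3K27ac at 7.104% to 7.84% (E11.5) and 16.2% to 19.0% (E17.5), and H3K27me3 at 4.97% to 6.24% and then 7.73% to 11.1%. The H3K27ac lists themselves held 32418 and 36150 peaks at E11.5 against 62720 to 77419 at E17.5 in wild type, and the part of this in the difference was not tested. Wild type H3K27me3 lists held 19166 and 13850 peaks at E11.5 against 27452 to 43700 at E17.5, and the part of this was not tested either. In humanized embryos H3K27ac at promoter sites, again outside chromosome 13, went from 58.8% ± 0.301 (SD, n = 2) to 70.7% ± 3.50 (n = 3). Among those E17.5 lists, humanized list 3 had fewer peaks (47132 against 63947 and 65181) and marked 66.6% of sites against 72.9% and 72.5%.

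**Figure D3:**
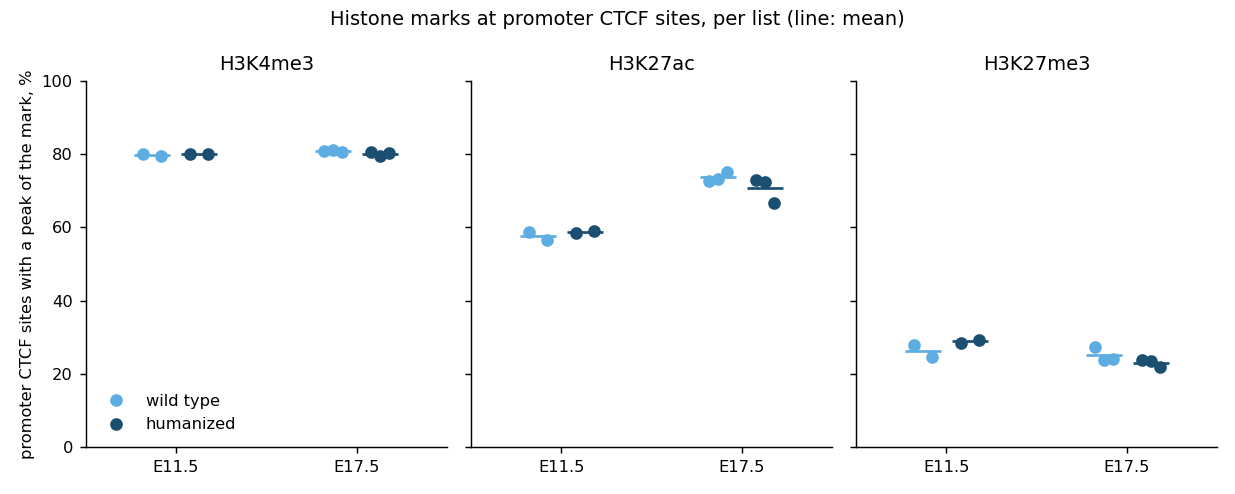
Share of promoter CTCF sites overlapped by a peak of H3K4me3, H3K27ac or H3K27me3 in each list, by stage and genotype. Wild type shares are over 8749 sites and humanized shares over the 8451 outside chromosome 13. Wild type H3K27ac lists sit at 56.6% and 58.7% at E11.5 and between 72.8% and 75% at E17.5, while H3K4me3 lies between 79.4% and 81.1% over both genotypes. For H3K27me3 the stages overlap in wild type and do not in humanized lists, at 28.4% and 29.3% against 21.8% to 23.8%.

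Counting a mark only where it was called in all wild type lists of a stage, 4202 promoter sites had H3K4me3 with H3K27ac at E11.5 and 5139 sites had them at E17.5. H3K4me3 with H3K27me3, the bivalent combination known from poised developmental genes, went from 1141 to 551 sites, and all 3 marks together from 577 to 948. Distal sites moved in the same directions, with H3K4me3 and H3K27ac going from 3.43% to 5.69% of them. There the bivalent combination went from 1.81% to 1.21% and all 3 marks from 0.60% to 1.25%. A combination had to be in 2 lists at E11.5 but in 3 at E17.5. The part of this and of the peak numbers per list in these counts was not tested. In lists from pooled tissue, marks on the same chromatin and marks in different cells cannot be told apart. No mark in all lists was found at 1460 sites at E11.5 against 1267 at E17.5, and 1184 of them were in this class at both stages. Sites with a mark in only part of the lists belong to this class. The exact motif was present at 42.2% and 44.0% of the sites of this class, and their median CpG ratio was 0.205 and 0.198. Of the 1141 bivalent sites, 405 kept that combination, 511 had all 3 marks at E17.5 and 175 had H3K4me3 with H3K27ac. Of the 981 with H3K4me3 alone, 577 also had H3K27ac at E17.5.

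Genes whose promoter CTCF site had H3K4me3 with H3K27ac had a median of 6.43 ± 0.132 RPKM (reads scaled to exon length and library size; SD over 4 wild type samples) at E11.5 against 5.64 ± 0.346 at E17.5. Those with the bivalent combination had 0.591 ± 0.0176 and 0.477 ± 0.0167, and those with H3K27me3 alone 0.338 ± 0.0302 and 0.449 ± 0.0240. Genes with all 3 marks lay between, at 3.99 ± 0.159 and 2.65 ± 0.0966.

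Starts with a promoter CTCF site were compared with the 10525 starts at which no wild type list had a CTCF peak and with the 2975 that had a peak in 1 or 2 lists only. H3K4me3 was called in all E17.5 lists at 91.4% of starts with a promoter site, 89.7% of those with a CTCF peak in 1 or 2 lists and 31.1% of those with none. H3K27ac at E17.5 was present at 84.5%, 82.5% and 26.3%, and H3K27me3 at 28.2%, 26.9% and 15.5%. The first 2 classes were thus close to each other in all 3 marks.

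The RNA of genes with a promoter CTCF site had a median of 3.49 ± 0.0461 RPKM (SD, n = 4) at E11.5 against 3.55 ± 0.165 at E17.5 in wild type. Genes with no CTCF peak had medians of 0.0181 ± 0.00304 and 0.0437 ± 0.0111. On the scale of log2(RPKM + 1) the difference between the medians was 2.14 ± 0.0117 and 2.12 ± 0.0399. This difference was 4.93 and 4.67 with a pseudocount of 0.1, and 0.16 and 0.21 among genes of at least 1 RPKM in every sample. Among genes whose start carried H3K4me3 the gap was smaller, with 4.09 against 2.65 RPKM at E11.5, then 4.08 against 2.46 at E17.5, a difference of 0.48 ± 0.0433 and 0.56 ± 0.0720 on that scale. The genes with CTCF in 1 or 2 lists had 4.41 ± 0.105 RPKM at E11.5, above the genes with a site in all 3 lists, and 4.04 ± 0.293 at E17.5, within the spread between samples of the 4.08 for those genes.

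**Figure D4:**
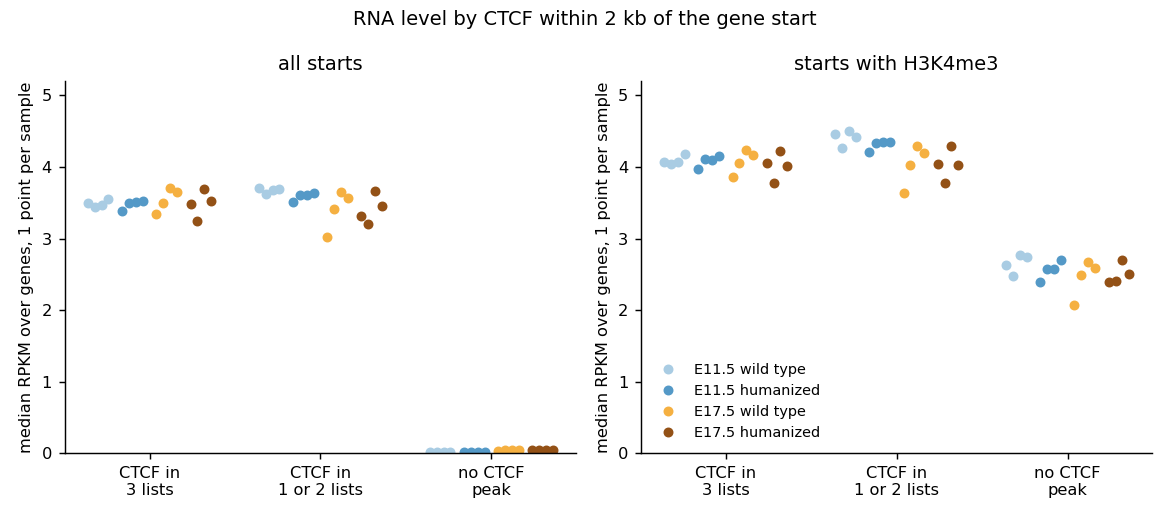
Median RPKM in each RNA sample for genes with a promoter CTCF site in all 3 lists, with a CTCF peak in 1 or 2 lists, and with none, over all starts and over starts with H3K4me3. The class without CTCF is the lowest in every sample in both panels, and the other 2 classes lie close together.

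Within the promoter sites a stronger CTCF peak did not go with more RNA. From the lowest to the highest quintile of fold enrichment the median level at E11.5 went from 4.24 ± 0.119 to 3.15 ± 0.139 RPKM, and genes whose site held the exact motif had 2.62 ± 0.0966 against 3.65 ± 0.0616 for the rest. These are descriptions over genes, which are not replicates.

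Between E11.5 and E17.5, wild type genes with a promoter CTCF site changed about as often as other genes. Of 7381 such genes tested by edgeR's quasi-likelihood test, 2368 were higher at E17.5 (32.1%) and 1885 lower (25.5%) at a Benjamini-Hochberg adjusted p under 0.05. Over all 18583 genes tested the shares were 29% higher and 26.7% lower, and over the 14340 protein-coding ones 32.2% and 25.7%. Their median log2 change was 0.05, against -0.01 over all genes. In bulk tissue, fewer cells of a type and less RNA per cell cannot be told apart. Without wild type E17.5 replicate 1, 2772 were higher and 2842 lower, and these held 99.2% and 99.9% of the former calls. In humanized embryos 2863 of 7376 were higher and 3103 lower (38.8% and 42.1%; 38.2% and 39.5% over all genes, 39.8% and 40.6% over protein-coding ones), and they included 93.8% and 96.6% of the wild type calls, with 2 genes called in opposite directions.

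The 10 largest rises began with Grm5. This gene, a metabotropic glutamate receptor, had 0.562, 0.0525, 0.728 and 0.0818 CPM in the 4 wild type samples at E11.5 against 109, 331, 211 and 293 at E17.5, a log2 rise of 9.39 ± 0.68 (SE, adjusted p 1.94e-06 by edgeR). Its CTCF site, 1918 bp from the start, changed from H3K27me3 alone to H3K4me3 with H3K27ac. Hepacam, a glial cell adhesion protein, rose by 8.08 ± 0.36, and Thy1, a neuronal surface protein, by 7.89 ± 0.50. GABA receptor subunit genes Gabrg3 and Gabrg1 rose by 7.70 ± 0.43 and 7.30 ± 0.56. Plppr4, a phospholipid phosphatase-related protein of neurons, rose by 7.85 ± 0.42, and its start changed from the bivalent combination to H3K4me3 with H3K27ac. The calcium-binding protein gene Calb2 had 2.04, 0.631, 0.936 and 0.859 CPM at E11.5 against 294, 122, 132 and 140 at E17.5. Its site covered the start with fold enrichments of 38.0, 49.9 and 25.9, and H3K27me3 alone at E11.5 was followed by all 3 marks at E17.5. Cpne7, Gda and Gprin3 completed the 10 largest rises, between 6.93 and 7.93.

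The 10 largest falls began with Tal2. This gene, a transcription factor of the early brain, had 157, 103, 188 and 130 CPM at E11.5 against 0.678, 1.63, 0.981 and 0.937 at E17.5, a log2 change of -7.09 ± 0.34 (adjusted p 3.12e-07 by edgeR). The pluripotency-associated zinc finger gene Sall4 changed by -6.88 ± 0.53, from at least 19.7 CPM to at most 0.511. At both Tal2 and Sall4, all 3 marks at E11.5 were followed by H3K4me3 with H3K27me3. Igdcc3 changed by -5.53 ± 0.29, Igf2bp1, an oncofetal RNA-binding protein, by -5.32 ± 0.25, and Fst, an activin antagonist, by -4.65 ± 0.20. Igf2bp1 and Fignl2 (-4.55 ± 0.33) each had H3K27me3 added to H3K4me3 and H3K27ac at E17.5. Ube2c, a ubiquitin-conjugating enzyme of mitosis, and Cdc6, which licenses replication origins, changed by -4.46 ± 0.25 and -4.29 ± 0.21, and both sites held an exact motif. Hapln1 and Corin completed the 10, at -4.55 ± 0.34 and -4.34 ± 0.42.

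Named groups of genes with a promoter site moved in different directions. Among 33 genes of synaptic and neuronal signalling, 14 had a promoter CTCF site (42.4%, against 38.0% of all starts), and all 14 were higher at E17.5, with a median log2 change of 3.03. Of the whole list, with and without a site, 32 of 33 were higher and none lower, against 32.2% and 25.7% of protein-coding genes. Grin2b, an NMDA receptor subunit, had 7.92, 3.94, 9.93 and 6.09 CPM at E11.5 against 246, 744, 481 and 524 at E17.5 (log2 change 6.16 ± 0.43), and its site, 34.1, 28.9 and 22.1 in the 3 lists, held an exact motif 35.5 bp from a summit that lay 184 bp upstream of the start. Scn2a, a sodium channel, rose by 5.01 ± 0.46, and Slc12a5, the neuronal chloride exporter, by 4.23 ± 0.20. The presynaptic adhesion gene Nrxn2, whose motif is printed above, had 70.8 to 96.5 CPM at E11.5 against 913, 358, 306 and 309 at E17.5. H3K27ac was added to H3K4me3 at the CTCF sites of Grin2b, Slc12a5 and Nrxn2 by E17.5.

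Of 30 cell cycle and replication genes, 15 had a promoter site (50.0%), and 14 of them were lower at E17.5 with none higher (median log2 change -3.70). Of the whole list 29 of 30 were lower and none higher, against 25.7% and 32.2% of protein-coding genes. Rrm2, a ribonucleotide reductase subunit, had 438, 460, 439 and 442 CPM at E11.5 against 21.8, 23.5, 31.3 and 25.8 at E17.5 (-4.12 ± 0.19). Its site carried H3K4me3 and H3K27ac at both stages, with H3K27me3 in addition at E17.5. The replicative helicase gene Mcm2 changed by -4.07 ± 0.37 and the mitotic gene Birc5 by -4.03 ± 0.19, while Ccne2 had a log2 change of -0.42 ± 0.34 and was not called. H3K4me3 with H3K27ac marked 12 of the 17 sites of these genes at E11.5 against 11 at E17.5.

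Genes for CTCF, cohesin and their partners often had a CTCF site themselves, at 14 of 22 (63.6%), and 5 of the 14 were higher and 5 lower at E17.5 (median -0.36), as were 6 and 7 of the 22 on the list. Without wild type E17.5 replicate 1, 7 of the 14 were lower, with Maz (-1.14 ± 0.13, adjusted p 4.60e-06 by edgeR, against 0.143 with all samples) and Chd8 (-0.40 ± 0.14) added. The Ctcf start had fold enrichments of 37.9, 24.8 and 34.3, and its RNA went from 234, 216, 282 and 244 CPM to 122, 160, 138 and 144 (log2 change -0.79 ± 0.16). Rad21, a cohesin subunit, changed by -0.69 ± 0.18, and Zfp143, a zinc finger protein of promoters, by -1.20 ± 0.26. Smc3 and Stag2, also cohesin subunits, changed by 0.90 ± 0.26 and 1.24 ± 0.37, and Esco1, an acetyltransferase for cohesin, by 1.74 ± 0.39. Pds5b was also called higher, but the stages overlapped for Pds5b, Smc3 and Stag2, whose E17.5 replicate 1 was below the highest E11.5 sample. For Pds5b, leaving out any E11.5 replicate except 3, or E17.5 replicate 2 or 4, took its adjusted p above 0.05.

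Of 58 clustered protocadherin genes, which encode neuronal cell surface proteins and share similar sequences so that their counts are uncertain, 33 had a promoter site (56.9%). RNA was higher at E17.5 for 27 of the 31 tested and lower for none, with a median log2 change of 2.37, as it was for 46 and none of the 53 tested on the whole list. Pcdha5 had 0.306, 0.210, 0.468 and 0.368 CPM at E11.5 against 7.98, 14.7, 9.66 and 11.9 at E17.5 (log2 change 5 ± 0.32), and Pcdhb14 changed by 4.11 ± 0.26. Changes were smaller in the gamma cluster, where Pcdhga2 changed by 1.39 ± 0.29 and Pcdhgb8 by -0.01 ± 0.31, the latter not called. Calls for Pcdhga12 and Pcdhgb6 were lost without wild type E11.5 replicate 2, 3 or 4, and that for Pcdhgb7 without replicate 1 or 4. CTCF enrichment at protocadherin sites was low, with a median of 6.93 over the 35 sites, 2 of which held an exact motif. No mark was called in all lists at 20 of the sites in the E11.5 lists and at 8 by E17.5, and sites with H3K4me3 alone went from 4 to 9.

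Hox genes are the positional regulators of the trunk and hindbrain, and none of the 13 with a promoter site (of 39, 33.3%) passed the filter on low counts. On the whole list 1 gene was tested, and it was lower at E17.5. H3K27me3 was called in all lists of both stages at all 13 sites, 10 of them with H3K27me3 alone and 3 with H3K4me3 in addition at each stage. CTCF enrichment there was above the median of promoter sites, at 20.4. The site over the start of Hoxa7 had fold enrichments of 70.5, 34.4 and 51.2 and its summit in an untranslated exon. Exact motifs were present at Hoxa7, Hoxa10 and Hoxd12.

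Of 40 imprinted genes with an annotated start, 20 had a promoter site (50.0%), and 9 of the 19 tested were higher and 4 lower at E17.5 (median 0.47), against 17 and 9 of the 37 tested on the list. Without wild type E17.5 replicate 1, 6 were lower, with Tssc4 (-1.03 ± 0.17, adjusted p 0.000122 by edgeR, against 0.0819) and Commd1 (-0.60 ± 0.17) added. Zim1 changed by 4.04 ± 0.45 and Usp29 by 3.34 ± 0.33, and Usp29 shares its site with Peg3 (1.65 ± 0.30). Grb10, an adaptor that restrains growth factor signalling, changed by -2.63 ± 0.19, and Peg12 by -3.998 ± 0.21. H13, a signal peptide peptidase gene whose motif is printed above, had fold enrichments of 44.4, 47.9 and 52.3 and a log2 change of 0.07 ± 0.24, with its counts uncertain since Mcts2 lies within it. Blcap, next to Nnat, had fold enrichments of 44.6, 38.3 and 49.6 at a site with no mark in all lists at either stage. The call for Copg2 (-0.46 ± 0.18) was lost with DESeq2 and without any of the E11.5 replicates or E17.5 replicate 3 or 4.

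Transcription factors that pattern the diencephalon had a promoter site at 19 of 49 genes (38.8%), and 12 of these were lower and 6 higher at E17.5 (median -1.28), against 23 and 14 of the 48 tested on the list. All 3 marks were present at 8 of their 21 sites in the E11.5 lists and at 14 by E17.5. Otx1 changed by -3.14 ± 0.24, Gata2 by -2.79 ± 0.25, Pax6 by -2.08 ± 0.18 and Irx1 by -1.86 ± 0.32. Rora, a nuclear receptor, rose from 1.52 to 4.89 CPM at E11.5 to 37.7 to 122 at E17.5 (4.69 ± 0.44), and Dlx1, a homeobox gene of GABAergic neurons, rose by 1.54 ± 0.21 in counts that do not separate it from its antisense transcript. Lmx1b, whose motif is printed above, changed by -1.82 ± 0.28. The call for Dlx5 (0.89 ± 0.30) was lost without E11.5 replicate 1, 3 or 4. Myc and App, long-studied promoters bound by CTCF, changed by 1.58 ± 0.22 and 1.61 ± 0.18. Myc had 4 sites, of which the strongest, 1547 bp from the start, had fold enrichments of 35.8, 19.3 and 35.9.

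**Figure D5:**
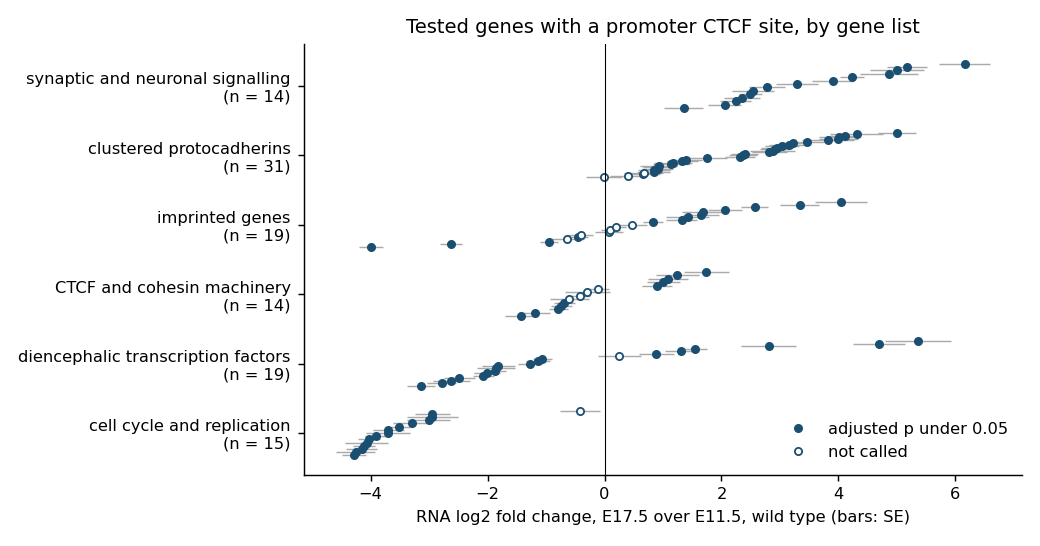
Log2 change of RNA between E11.5 and E17.5 in wild type, with its standard error, for the tested genes with a promoter CTCF site in 6 gene groups. Filled points passed an adjusted p under 0.05 by edgeR. All synaptic genes lie above 0 and all cell cycle genes below it, and the protocadherins lie at or above 0 apart from Pcdhgb8 at -0.01.

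At individual starts the marks were compared by the fold enrichment of the highest peak within 2000 bp, with limma on its log2, over starts with a peak in all 5 wild type lists and with each list centred on its median. For H3K4me3, 255 of 7470 starts with a promoter CTCF site were higher at E17.5 and 84 lower (3.41% and 1.12%; 3.62% and 1.49% over all starts tested). Without centring, which moved the median by 0.20, these were 578 and 56 (8.1% and 1.06% over all starts tested), and leaving out any of the 5 lists left 25 to 79 higher and 3 to 25 lower. Scg2, a secretogranin of neurosecretory granules, had fold enrichments of 5.60 and 4.04 at E11.5 against 44.0, 48.1 and 38.4 at E17.5. The sodium channel gene Scn2a had 6.33 and 6.86 and then 42.4, 44.6 and 45.4. Foxa2, a transcription factor of the floor plate, had 23.1 and 21.5 and then 4.33, 4.43 and 4.80, and Crb2, a polarity protein of progenitors, had 44.9 and 45.4 and then 11.2, 9.36 and 11.8. Of the genes with higher H3K4me3 and RNA tested, 82.4% were higher in RNA (183 of 222), and of those with lower H3K4me3, 81.1% were lower (60 of 74). Where H3K4me3 was not called, 29.97% were higher in RNA and 26.1% lower (39.5% lower without wild type E17.5 replicate 1 of the RNA). Without centring 76.6% of 518 were higher and 86.0% of 50 lower.

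For H3K27ac, 532 of 5809 starts were higher and 928 lower relative to the list median (9.16% and 16%; 9.08% and 15.9% over all starts tested). The uncentred values were higher at E17.5 by a median of 1.02, and without centring 4192 were higher and 92 lower (71.8% and 1.84% over all starts tested), so the split of directions depends on the scale. Without E11.5 list 1 the counts were 337 and 452, and without E11.5 list 2 they were 284 and 411. Rhof, a small GTPase, had 2.98 and 2.96 at E11.5 against 74.7, 57.7 and 68.6 at E17.5, and the glutamate receptor gene Gria2 had 4.00 and 4.55 and then 41.2, 55.2 and 46.7. Grb10 had 29.6 and 29.7 and then 9.77, 6.39 and 8.63, and Fst had 14.6 and 20.03 and then 5.60, 4.88 and 5.19. Both genes were lower with and without centring, and both fell in RNA. RNA was higher for 60.7% of genes with higher H3K27ac (and lower for 8.20%) and lower for 55.8% of genes with lower H3K27ac, against 24.0% higher and 25.4% lower where H3K27ac was not called. These shares rest on centred directions. Without centring, RNA was higher for 30.4% and lower for 20.9% of the 4038 genes with higher H3K27ac, and lower for 76 of the 85 with lower H3K27ac. Without wild type E17.5 replicate 1 of the RNA, 16.2% of the genes with higher H3K27ac (centred) were lower, and 41.2% of those not called.

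For H3K27me3, 421 of 1903 starts were higher at E17.5 and 830 lower (22.1% and 43.6%; 25.8% and 38.4% over all starts tested). Without centring 251 and 815 were called (15.8% and 37.6% over all starts tested). Sall4 had 3.33 and 2.98 at E11.5 against 15.5, 10.1 and 11.01 at E17.5. The RNA decay factor gene Zfp36l1 and the homeobox gene Tgif1 had higher H3K27me3 by 1.69 ± 0.14 and 1.67 ± 0.11 (log2, centred), and their RNA changed by -2.41 ± 0.16 and -3.24 ± 0.30. Camk2b, a calcium-dependent kinase of synapses, had 18.6 and 14.3 and then 4.48, 4.16 and 3.48, and Mapt, the microtubule protein tau, had 14.9 and 12.2 and then 4.15, 3.62 and 3.41. RNA rose for both, by 5.17 ± 0.34 and 3.62 ± 0.33. The largest fall in H3K27me3 was at Scrt1 (19.1 and 18.2, then 5.56, 4.41 and 3.92). Scrt1 RNA changed by -0.63 ± 0.29 and was not called. Of the genes with lower H3K27me3, 72.9% were higher in RNA (528 of 724), and of those with higher H3K27me3, 42.3% were lower (155 of 366). Where H3K27me3 was not called, 44.0% were higher and 22.7% lower in RNA. Without centring the shares were 74.6% of 725 and 50.9% of 224, and without wild type E17.5 replicate 1 of the RNA 73.9% and 51.2%, while genes with lower H3K27me3 and lower RNA went from 57 to 93.

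Marks called in every wild type list of a stage and in none of the other were counted as gained or lost. Wild type lists of H3K27ac and H3K27me3 held more peaks at E17.5 than at E11.5, and the part of this in gains and losses was not tested. H3K27ac was gained at 820 of the 8257 starts with a promoter site and lost at 33 (9.93% and 0.400%; 7.86% and 0.62% of all starts). Over all 7381 genes tested with a promoter site, 32.1% were higher in RNA and 25.5% lower (38.3% lower without wild type E17.5 replicate 1). Of 751 genes tested with gained H3K27ac, 528 were higher in RNA and 48 lower (72.7% and 13.3% of 757 without wild type E17.5 replicate 1). They included Ntng1, an axon guidance protein (H3K27ac 51.3, 57.3 and 54.3 at E17.5, RNA 4.49 ± 0.25), and the neurotrophin Bdnf (48.9, 37.2 and 53.9; RNA 2.67 ± 0.28). H3K27ac was lost at Greb1 (21.5 and 25.7 at E11.5, RNA -3.70 ± 0.24) and Sall4 (12.03 and 12.3). Parp11 lost H3K27ac too, and its RNA was called higher (0.44 ± 0.16, adjusted p 0.0386 by edgeR). Of 29 genes tested with lost H3K27ac, 23 were lower in RNA and 1 higher (2 higher without wild type E17.5 replicate 1). H3K4me3 was gained at 47 starts and lost at 20 (0.569% and 0.242%; 0.777% and 0.4% of all starts), and 31 of 34 genes tested with a gain rose. Vgf, a neuropeptide precursor, gained it at 19.8, 53.5 and 33.5 with an RNA change of 5.86 ± 0.33, and Rcor2, a transcriptional corepressor, lost it from 73.0 and 76.8 with a change of -3.05 ± 0.30. H3K27me3 was gained at 268 and lost at 190 (3.25% and 2.30%; 3.28% and 1.27% of all starts). Of 222 genes tested with gained H3K27me3, 99 were lower in RNA and 48 higher. Of 183 with lost H3K27me3, 119 were higher and 21 lower (33 lower without wild type E17.5 replicate 1). The immediate early gene Ier2 gained H3K27me3 (10.5, 8.50 and 7.56, with RNA -1.95 ± 0.34). The protocadherin Pcdh7 lost it (9.02 and 9.16, with RNA 2.64 ± 0.34). Gpatch4, which gained it, had an RNA change of 0.03 ± 0.16. Dus3l gained it too, and its RNA was called higher (0.63 ± 0.22, adjusted p 0.0297 by edgeR).

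Changes in the combination of marks at the CTCF site itself were set beside RNA in the same way. Where the bivalent combination was followed by H3K4me3 with H3K27ac, 86.3% of 139 genes tested were higher at E17.5 and 1.44% lower, with a median of 2.21. Where H3K27me3 was added to H3K4me3 and H3K27ac, 12.7% of 102 were higher and 69.6% lower, with a median of -1.18. Where H3K27ac was added to H3K4me3 alone, 37.9% of 520 were higher and 17.7% lower, with a median of 0.23. Without wild type E17.5 replicate 1 the shares in these 3 groups were 86.6% higher and 4.23% lower, 15.7% and 75.5%, and 43.1% and 31.7%, beside 37.4% and 38.3% over all genes with a promoter site.

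Humanized and wild type embryos were compared outside chromosome 13, which holds hs754 and differs in coordinates between the genomes. Of 8451 promoter sites there, the 3 humanized E17.5 CTCF lists held 91.3%, 90.8% and 92.3%, and 7062 (83.6%) were in all 3, against 84.5% of distal sites. The 184 sites in no humanized list (2.18%) were weak, with a median fold enrichment of 4.13 in wild type and at most 6.46, and 5.98% held an exact motif against 19.4% of the 7062. Conversely, 95.8% of the 7381 promoter regions called in all 3 humanized lists were in all 3 wild type lists and 4 were in none. The wild type CTCF lists held 78661, 61582 and 64284 peaks, and the humanized lists 58154, 54857 and 59845. The part of this in these shares was not tested. At the 7062 shared sites the median fold enrichment was 13.8, 10.2 and 12.03 in wild type and 10.9, 11.4 and 10.7 in humanized lists, so the genotypes overlapped. With limma, 0 of 7033 promoter regions called in all 6 lists differed at an adjusted p under 0.05 (0% of 41658 regions over the genome), 366 had an unadjusted p under 0.05, and the lowest adjusted p was 0.979.

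RNA of genes with a promoter site was not called different between genotypes by edgeR at either stage, with 0 of 7156 (E11.5) and 0 of 7357 (E17.5) (0% of all genes at both). An unadjusted p under 0.05 was found for 433 and 71 of them, and DESeq2 called 1 gene for the earlier stage and 0 for the later. The DESeq2 call was Ppp3cc, a calcineurin catalytic subunit, with 6.20, 5.09, 6.43 and 7.11 CPM in wild type and 12.7, 14.9, 11.2 and 12.4 in humanized embryos at E11.5, without overlap (log2 difference 1.04 ± 0.15, adjusted p 0.414 by edgeR). Lrrtm3 and Acp5 had the next smallest p-values, with log2 differences of -0.96 ± 0.18 and 0.86 ± 0.19. At E17.5 the smallest p-value was that of Ide, the insulin-degrading enzyme, with 51.3, 86.7, 71.1 and 94.96 CPM in wild type and 181, 187, 129 and 159 in humanized embryos (1.11 ± 0.23, adjusted p 0.808 by edgeR). Ide lies on chromosome 19, where the study describes copy-number variants among C57BL/6 mice, and the part of these in the difference was not tested. The interaction of genotype and stage was called for 0 of 7486 genes by edgeR and 0 by DESeq2, with 715 at an unadjusted p under 0.05 (0% of all genes called), and Pkn3, Fam117a and Tfap2c had the smallest p-values.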

How the data were processed

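The authors aligned ChIP-seq reads with Bowtie2 2.4.2 to mm39 (for humanized samples carrying the human locus), discarded duplicates and multi-mapping reads, and ran MACS2 2.2.7.1 on every replicate. For every peak the deposited lists hold a ratio, its fold enrichment against the local background, and the -log10 of the q-value. H3K27me3 peaks are of the broad form, and their ratio is a mean over the peak. The authors aligned RNA-seq reads with STAR 2.7.9a and deposited raw counts of reads per gene. Reads on no gene (48.1% to 58.4% of a sample) entered neither library sizes nor tests.

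Of 76 samples, 52 were analysed, 36 peak lists and 16 RNA samples, and the 24 inputs were not used here. Gene positions came from GENCODE release 39, which matched 56236 of 56923 gene IDs (98.8%). A gene's start was the 5′ end of its annotation. Unstranded counts went through filterByExpr and TMM scaling to the quasi-likelihood test of edgeR 4.0.16 (R 4.3.3), each comparison on its own samples, with Benjamini-Hochberg adjustment over all genes tested. Log2 fold enrichment was tested with limma 3.58.1 (trend), each list centred on its median. Shares over lists were compared with exact permutation tests. RPKM used the summed exon length and a pseudocount of 1 on the log2 scale. Alternatives included DESeq2 1.42.0, other distances, thresholds and scalings, a replicate block, and leaving out each list or sample. RNA counts of gene groups without wild type E17.5 replicate 1, and RNA beside uncentred mark calls, were added after seeing the data. Python 3.11.15, pandas 2.3.3, scipy 1.17.1 and matplotlib 3.10.9 were used.

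Sites, gene lists and tests were chosen with earlier results of these data known. Named genes were the 10 strongest sites, the 3 sites nearest the 2000-bp limit on either side, and the 10 largest rises and falls in RNA. These rises and falls were called, with stages not overlapping and at least 10 CPM in the higher stage. Others were up to 3 genes with the smallest p where none was called, and some members of the lists. For marks, the 5 largest changes or highest levels per mark and direction were taken. Only some of these are printed, and the top gene is not always among them. On simulated counts with 200 genes changed, the wild type stage test found 1.49%, 18.2% and 90.9% of those with changes of 1.5, 2 and 4 times (18202 genes), the E11.5 genotype test 17.9%, 70.1% and 95.5% (17558 genes), and the E17.5 genotype test 0%, 8.96% and 87.9% (18376 genes). For the CTCF genotype comparison limma called 0%, 10.4% and 75.8% (41658 regions). In the real wild type stage test 29% of genes were called higher and 26.7% lower, many more than the 200 changed in the simulation. The Benjamini-Hochberg cut is less strict when more genes change, so the simulated shares do not give the recovery of that test.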

Additional observations from a re-analysis of the deposited data

Results flagged for a closer look

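In 80 groups of 4 samples, 7 had a highest or lowest sample set apart by more than Dixon's 95% critical value, and chance gives about 1 in 20 such groups. Of the 7, 4 were in wild type E17.5 replicate 1. In that library Calb2 was highest at 294 CPM (122 to 140 in the others), Rd3 was highest at 2.90 CPM (1.49 to 1.56), the median of genes with no CTCF peak at their start was lowest at 0.0272 RPKM, and the mean correlation with the group over promoter-site genes was lowest at 0.938. Wild type E11.5 replicate 2 had the lowest Plppr4 (0.105 CPM) and the highest Lrrtm3 (2.38 CPM). Tfap2c in humanized embryos at E17.5 was 0.0607 CPM in replicate 2 and 0 in the other 3. Calb2 and Plppr4 kept their calls between stages without these samples.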

How the results depend on the processing

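Of 277 alternative values for the comparisons, 245 kept their direction and stayed on the same side of the threshold or within the limits set for values and counts, and of 1910 for named genes 1873 did. The 277 include counts of genotype calls in RNA and CTCF and of interaction calls. These were 0 in the main setting and moved only with the DESeq2 call of Ppp3cc. Also included are the shares of marks, judged by direction alone. The CTCF enrichment difference is a further one, whose p cannot go below 0.05 with 3 lists. Among named genes 35 calls were lost, those of Copg2, Pds5b, Dlx5 and gamma protocadherins in RNA and of Lzts2, Barhl1 and Sall4 in H3K4me3 (the last 3 when a list was left out), and the cause was not tested. Fam90a1b turned to -0.0402 for H3K4me3 within 1000 bp, and Ppp3cc was called by DESeq2 alone (1 gene at E11.5).

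The H3K27me3 difference at promoter sites ranged from -2.64 to 0.602 when a list was left out, turning sign without E11.5 replicate 1. Genes lower at E17.5 in wild type RNA numbered 1548 to 2842 when a sample was left out. H3K4me3 was higher at 578 starts without centring, 78 with a replicate block and 25 to 79 with a list left out, and lower at 22 with the block and 3 to 25 with a list left out. H3K27ac was higher at 4192 starts without centring and 284 to 435 with a list left out, and lower at 92 and at 411 to 806. H3K27me3 was higher at 251 starts without centring and 261 at a -log10 q of at least 5, where 456 were lower. With fewer lists the test has fewer samples. The motif share was 61.9% with 1 mismatch, 15.2% within 50 bp of the summit and 19.3% at the stricter q. The RNA difference between starts with and without CTCF was 4.93 (E11.5) and 4.67 (E17.5) with a pseudocount of 0.1, and 0.16 and 0.21 among genes of at least 1 RPKM.

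Of 126 counts of genes in groups added after seeing the data (without wild type E17.5 replicate 1, or without centring), 94 stayed within 1.5 times.

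Samples with the same replicate number were not treated as pairs, and whether they were paired is not settled. Correlations of same-numbered deviations were at or below 0.1 in part of the pairs of every comparison. For RNA between genotypes at E17.5 they were 0.51, 0.56, 0.043 and 0.19 for replicates 1 to 4. That comparison called 0 genes with a promoter site with a replicate block too. With the replicate block 2163 genes were higher and 1766 lower in wild type RNA. Depth is unknown for peaks, and at the low end a missing peak is not an absent site.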
